A study of Mus musculus with 2 samples.

Results

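A collagen and extracellular matrix module of 34 genes was followed through the cells of 1 mouse tumour library. The members were chosen by name from the 33696 genes of the deposited matrix: 19 collagen chains, 4 matrix glycoproteins, 5 matricellular proteins, 3 proteoglycans and 3 lysyl oxidases. All 34 symbols were found, and together they held 1046219 of 95995527 UMIs (unique molecular identifiers, one per captured RNA molecule), or 1.09%. The question asked of each gene was which class of cells held most of its UMIs, called its main source here.

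The series compared subcutaneous tumours of 4T1, a mouse breast cancer cell line, labelled with a WT genotype in both groups. The control group received PBS. The other group received PCN according to the treatment label, while the series title and design name the agent PATCH. What either name stands for is not explained there. Each group was 1 library of polyA RNA made with Chromium Single Cell 3′ v3 reagents, and the labels give no age, time, dose or number of animals behind a library. The matrix analysed holds the treated library. Control counts were not analysed here, and no value below is a treatment effect. With 1 library there is no replicate: no test was run, and every interval is an exact 95% interval for counting error only.

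Fibrillar collagens (types I, III and V) assemble into the tensile fibres of connective tissue, and lysyl oxidases cross-link them. Type IV collagen, with collagens XV and XVIII attached to it, forms the basement membrane under epithelium and endothelium. Collagens VI, XII, XIV and XVI and the small proteoglycans decorate fibrils, and matricellular proteins such as tenascin C and thrombospondins modulate how cells attach to the matrix. In solid tumours most of this matrix is classically attributed to fibroblasts.

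The classes were drawn from 11976 of 12309 barcodes, those with 300 genes or more and less than 10% of UMIs mitochondrial, with a median of 4366 UMIs. A fibroblast barcode had Pdgfra, Lum, Serping1 and Mfap5 at 0.1% or more of its UMIs (535 barcodes). Of the rest, a tumour barcode had Krt8, Krt18, Krt7 and Epcam at 0.1% or more (741), an endothelial barcode had 5 or more UMIs of Cdh5, Cldn5, Egfl7, Emcn and Plvap (82), and a macrophage barcode had C1qa, C1qb, Csf1r, Apoe and Lyz2 at 0.3% or more (5300). The 5318 unmatched barcodes included 3317 neutrophil barcodes, defined by 8 neutrophil genes at 2% or more of UMIs. No member was used to define a class. Classes differed in depth, with medians of 16877 UMIs for fibroblast, 21312 for tumour, 9945 for endothelial, 7390 for macrophage and 1666 for neutrophil barcodes.

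The class names were checked against markers that had not defined them. The 10 further fibroblast markers summed to 3640 CPM (UMIs scaled to a total of 1000000 per class) in fibroblast barcodes and 308 to 623 CPM in the other classes. The 8 endothelial markers summed to 4787 CPM in endothelial barcodes and 80.1 to 241 CPM in fibroblast, tumour and macrophage barcodes. The 8 tumour markers summed to 3638 CPM in tumour, 182 to 230 CPM in fibroblast, endothelial and macrophage, and 2762 CPM in neutrophil barcodes. The 8 macrophage markers summed to 4762 CPM in macrophage, 147 to 398 CPM in fibroblast, tumour and endothelial, and 763 CPM in unmatched barcodes. The 8 neutrophil markers reached 4077 CPM in macrophage barcodes. Other cell types were present within classes: 300 macrophage barcodes carried neutrophil genes at 2% or more, and 26 of 82 endothelial barcodes carried at least 3 UMIs of the pericyte and smooth muscle genes Rgs5, Notch3, Myh11 and Des. Doublets were not called, and 14 barcodes met the rule of more than 1 of the fibroblast, tumour and endothelial classes.

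One pair of members lies head to head in the genome, and its balance across classes is followed below, so the stretch between its start sites is shown. Col4a1 and Col4a2 encode the chains of the commonest type IV collagen. Their annotated starts are 21 bases apart on opposite strands, at chr8:11312805-11312826 (GRCm38.p6, RefSeq), inside the first exon of each gene. Capitals mark the first transcribed base of each gene, at opposite ends of the stretch. It is given 5′ to 3′ on the minus strand for Col4a1 and on the plus strand for Col4a2.
Col4a1: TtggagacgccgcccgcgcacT
Col4a2: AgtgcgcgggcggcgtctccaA

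Fibroblast barcodes were the main source of 25 members, tumour barcodes of 6 (Col4a1, Col4a2, Col4a5, Col7a1, Col8a1, Col18a1) and macrophage barcodes of 3 (Fn1, Thbs1, Vcan). Endothelial and unmatched barcodes were the main source of none. Among 17856 genes with at least 20 UMIs, fibroblast barcodes were the main source of 8.58%, tumour barcodes of 17.8% and macrophage barcodes of 65.6%, endothelial barcodes of 0.969% and unmatched barcodes of 7.11%. The 535 fibroblast barcodes held 10.4% of all UMIs and 69.5% of those of the module. Matrix genes made up 7.25% of the UMIs of fibroblast barcodes, 0.969% in endothelial, 0.395% in tumour, 0.344% in macrophage and 0.0723% in neutrophil barcodes.

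**Figure D1:**
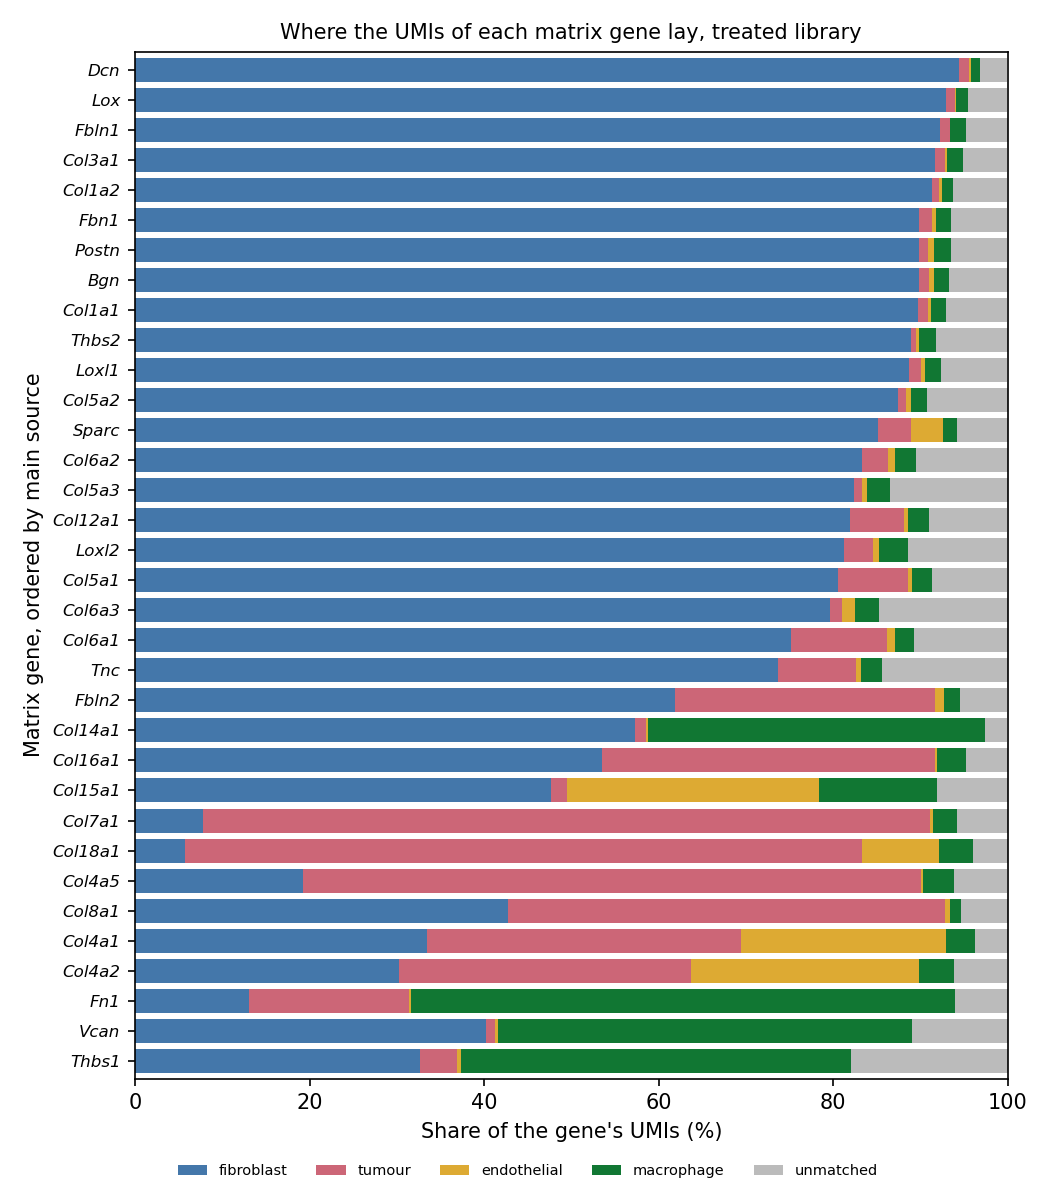
Share of each gene's UMIs (x axis, percent) in the 5 classes, 1 bar per matrix gene, ordered by main source and share. Blue (fibroblast) fills most of the upper bars, Col14a1 and Fn1 have large green (macrophage) parts, and Col4a1 and Col4a2 are split over fibroblast, tumour and endothelial barcodes.

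A main source depends on how many cells and UMIs a class holds, so the level in CPM was read beside it. Fibroblast barcodes had the highest level of 27 members, endothelial barcodes of 4, tumour barcodes of 2 and macrophage barcodes of 1 (background 17.2%, 22.5%, 30.1% and 14.3% of genes). Main source and highest level differed for 7 members: Col4a1, Col4a2, Col8a1, Col15a1, Col18a1, Thbs1 and Vcan. A level at least 4 times that of all other barcodes was found in fibroblast barcodes for 29 members (background 9.72%), in tumour barcodes for 4 (8.59%), in endothelial barcodes for 4 (8.18%) and in macrophage barcodes for none (2.64%). In macrophage barcodes 30 of 34 were at least 4 times lower than in all others (background 17.6%), in tumour barcodes 21 were (18.9%), and in endothelial barcodes 8 were (7.22%).

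**Figure D2:**
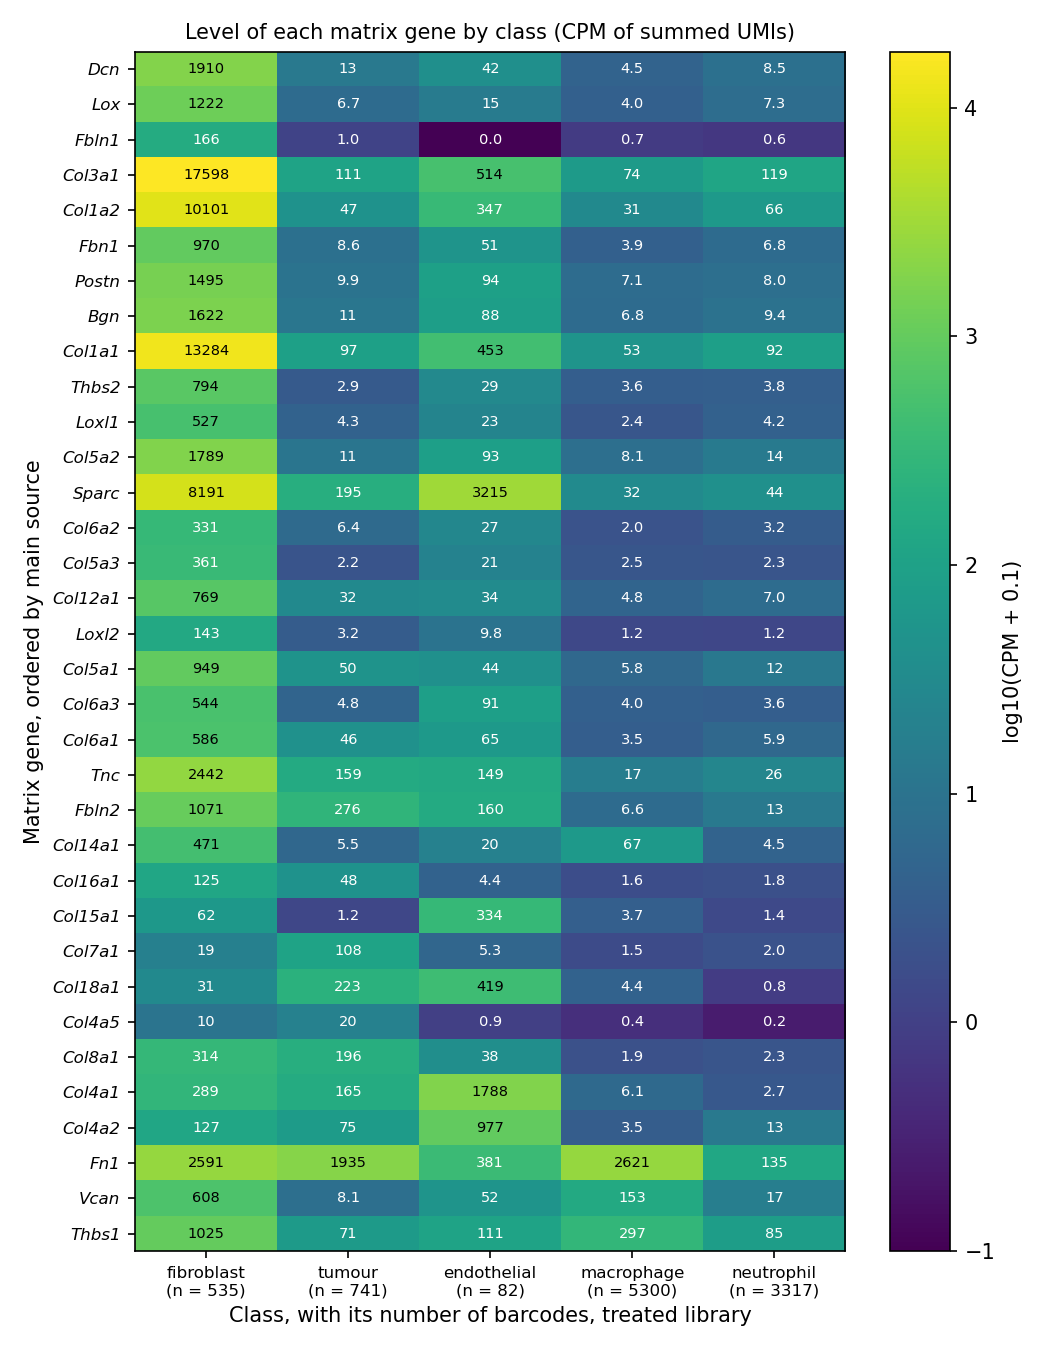
Level of each matrix gene (rows) in 5 classes (columns), printed as CPM of summed UMIs and coloured on a log10 scale after adding 0.1. Type I and III collagens and Sparc are the brightest cells, at 8191 to 17598 CPM in fibroblast barcodes, and Fn1 is bright in fibroblast, tumour and macrophage barcodes alike.

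The fibrillar collagens were fibroblast genes in this tumour. Col3a1, the type III chain, had 17598 CPM in fibroblast barcodes (17516 to 17680), 514 in endothelial, 111 in tumour and 73.5 in macrophage barcodes. Col1a1 had 13284, 453, 96.8 and 53.0 CPM in the same order. Col1a2, which joins Col1a1 in type I collagen, had 10101, 347, 47.0 and 31.3 CPM. Fibroblast barcodes held 91.7% of the UMIs of Col3a1, 91.3% of Col1a2 and 89.7% of Col1a1. The type V chains, which set fibril diameter, were also highest in fibroblast barcodes, with 1789 CPM of Col5a2, 949 of Col5a1 and 361 of Col5a3. The order of the other classes was less certain. Col5a1 had 50.3 CPM in tumour (47.2 to 53.6) and 43.5 in endothelial barcodes (32.2 to 57.5), so that the intervals overlapped. They also overlapped for Col5a3, at 2.47 CPM in macrophage (2.05 to 2.97) and 2.19 in tumour barcodes (1.57 to 2.97). Most endothelial UMIs of Col1a1, Col1a2 and Col3a1 came from 1 barcode, described below. Since a 3′ library counts 1 tag per molecule, no correction for length was made where different genes are set side by side. Differences between genes in how well their RNA is captured were not measured.

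Nearly every fibroblast barcode carried the type I and III genes. After thinning each barcode to 1000 UMIs, leaving out 20 shallower ones, Col3a1 was detected in 99.4% of 515 fibroblast barcodes (98.3 to 99.9) and in 7.48% of 2834 neutrophil barcodes (6.54 to 8.51), which should not make it. Col1a1 was detected in 97.1% and 5.50%. The type V chains were detected in fewer fibroblast barcodes, Col5a2 in 74.6%, Col5a1 in 55.9% and Col5a3 in 25.6%. Among fibroblast barcodes Col1a1 ranged from 2744 CPM at the 10th percentile to 26703 at the 90th, with a median of 11574. The corresponding values for Col3a1 were 5731, 31590 and 16605 CPM.

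In endothelial and tumour barcodes most fibrillar collagen genes had their UMIs in few barcodes, with Col5a1 in tumour barcodes an exception described below. In macrophage barcodes Col1a1 and Col3a1 were more spread. Of the 5300 barcodes, 193 were needed for 50% of Col1a1 and 444 for 50% of Col3a1, but only 3 for 50% of Col5a3. A single endothelial barcode held 86.5% of the Col1a1 UMIs of its class. That barcode had 54576 UMIs, of which 221 were endothelial class genes and 17 fibroblast class genes. Without it, endothelial Col1a1 was 64.3 CPM (50.1 to 81.4) instead of 453, Col1a2 61.5 instead of 347 and Col3a1 177 instead of 514, while Col4a1 was 1737 instead of 1788. In tumour barcodes 50% of the UMIs of 12 members lay in 5 or fewer barcodes, among them Col1a1, Col1a2, Col3a1, Col5a2, Col6a3, Dcn, Bgn and Lox. The tumour UMIs of Col18a1, in contrast, needed 141 barcodes to reach 50%, those of Col4a1 120 and those of Col7a1 116.

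**Figure D3:**
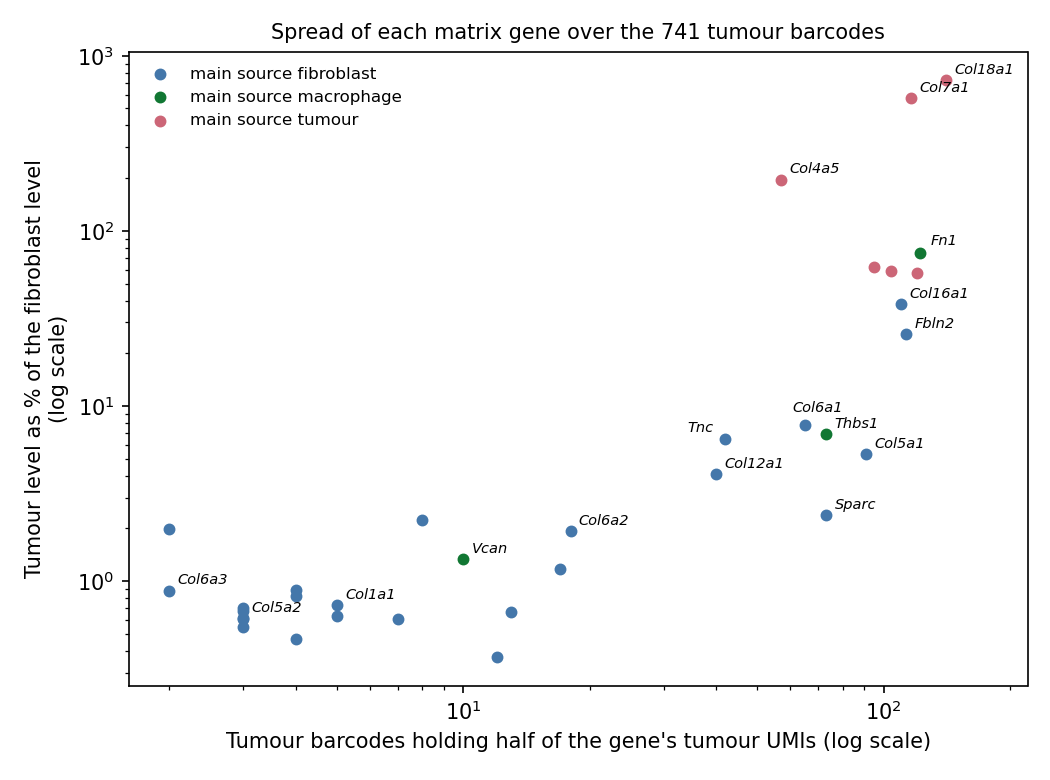
For each matrix gene, the number of tumour barcodes that hold 50% of its tumour UMIs (x axis, log scale) against its tumour level as a percent of its fibroblast level (y axis, log scale), coloured by main source. Col1a1 and Col6a3 lie at lower left with few barcodes, while Col18a1 and Col7a1 lie at upper right, in over 100 barcodes and above the fibroblast level.

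Within unmatched barcodes the fibrillar genes were again concentrated. Of 5318 unmatched barcodes, 40 with Col1a1, Col1a2 and Col3a1 at 1% or more of UMIs held 85.7% of the fibrillar UMIs. These were chosen by the members themselves, so their collagen level is no finding. Their fibroblast class genes summed to 746 CPM against 3207 in fibroblast barcodes, but an unmatched barcode is low in these genes by rule. The 10 further fibroblast markers, which defined no class, summed to 1584 CPM there. They summed to 3640 CPM in fibroblast barcodes and 308 to 623 CPM in the other classes. The 10 pericyte and smooth muscle markers summed to 3215 CPM against 1372 in fibroblast barcodes. This list includes Acta2 and Tagln, which are also contractile genes of myofibroblasts, and no sum without them is given here. Of the 40 barcodes, 9 carried at least 3 UMIs of Rgs5, Notch3, Myh11 and Des. Which cell type these barcodes are was not tested. Tnc had 5044 CPM there and 2442 CPM in fibroblast barcodes, and Col6a3 1022 and 544 CPM.

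Lysyl oxidases had the same main source as the fibrillar chains. Lox, the founding member of the family, had 1222 CPM in fibroblast barcodes. It had 15.1 CPM or less in tumour, endothelial and macrophage barcodes and 31.2 CPM in unmatched barcodes. Loxl1 had 527 CPM and Loxl2, which also acts on type IV collagen, 143 CPM in fibroblast barcodes. Fibroblast barcodes held 93.0%, 88.7% and 81.2% of their UMIs.

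Small proteoglycans and microfibril proteins were likewise found mainly in fibroblast barcodes. Dcn (decorin), which binds collagen fibrils, had the largest such share of any member, 94.4%, with 1910 CPM in fibroblast and 41.7 CPM in endothelial barcodes. Bgn (biglycan), its close relative, had 1622 and 87.8 CPM. Fbn1 (fibrillin 1), the core of microfibrils, had 970 and 50.6 CPM. The endothelial levels rest on few barcodes: 1 held 76.6% of the Dcn UMIs of the class, and without the barcode rich in Col1a1 the class had 46.6 CPM of Bgn and 25.2 CPM of Fbn1. Fbln1 had 166 CPM in fibroblast barcodes and no UMI in the endothelial class, which allows up to 2.66 CPM at the limit of 3 counts used here for a count of 0. Fbln2 departed from these: tumour barcodes held 29.8% of its UMIs, at 276 CPM (268 to 283) beside 1071 CPM in fibroblast barcodes.

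Among matricellular genes Sparc, a collagen-binding protein, was the most abundant, at 8191 CPM in fibroblast and 3215 CPM in endothelial barcodes (3111 to 3321). It was detected after thinning in 99.0% of fibroblast, 83.8% of endothelial and 1.94% of neutrophil barcodes. Postn (periostin) had 1495 CPM in fibroblast and 94.0 CPM in endothelial barcodes. Within the endothelial class, Postn was at 241 CPM in the 26 barcodes with pericyte genes and 53.3 CPM in the 56 without them. Col6a3 differed in the same direction, at 265 and 43.1 CPM. Of 28 members tested in this split, 4 were at least 2-fold higher with pericyte genes (background 7.30%) and 10 at least 2-fold lower (13.0%). These counts rest on 1 barcode, the one rich in Col1a1 described above, which lacked pericyte genes. Without it, and with 21 members tested, 10 were higher with pericyte genes (7.64%), among them Col3a1, at 396 against 112 CPM, and 4 were lower (12.8%): Col18a1, Tnc, Dcn and Vcan. Col1a1 was then 61.2 against 65.3 CPM, a ratio of 0.938 (0.492 to 1.69), and Postn 241 against 10.9 CPM. Thbs2 had 794 CPM in fibroblast barcodes and 29.3 CPM in endothelial barcodes, of which 1 barcode held 93.9%.

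Type VI collagen is built from 3 chains in equal proportion, and type V from Col5a1 and Col5a2 in its common form. In fibroblast barcodes there were 1.77 Col6a1 UMIs per Col6a2 UMI (1.70 to 1.85) and 1.08 per Col6a3 UMI (1.04 to 1.12). In tumour barcodes the same ratios were 7.15 (5.90 to 8.73) and 9.53, with a lower limit of 7.67. Col5a1 to Col5a2 was 0.530 in fibroblast barcodes (0.517 to 0.544) and 4.56 in tumour barcodes (3.92 to 5.33). The intervals of the 2 classes did not overlap for any of these 3 ratios. These are ratios of RNA tags, and the proportions of protein chains were not measured. The UMIs of the chain in excess in tumour barcodes were spread over many of them. Of Col5a1 UMIs 50% lay in 91 barcodes and of Col6a1 in 65, against 3 for Col5a2, 18 for Col6a2 and 2 for Col6a3.

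Among the collagen groups, basement membrane collagens had the smallest share of UMIs in fibroblast barcodes. Of their UMIs, tumour barcodes held 45.3%, fibroblast barcodes 25.9% and endothelial barcodes 19.8%. Col4a1 had 1788 CPM in endothelial (1711 to 1868), 289 in fibroblast, 165 in tumour and 6.11 in macrophage barcodes. Col4a2 had 977, 127, 74.9 and 3.47 CPM in the same order. For both genes tumour barcodes held the most UMIs, 36.0% and 33.5%, closely followed by fibroblast barcodes with 33.5% and 30.2%. In cells kept by the authors, which leave out barcodes of 20000 UMIs or more, fibroblast barcodes held the most instead, 37.4% and 32.9%.

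The head-to-head pair leaned toward Col4a1 in the classes that held most of its UMIs. Col4a1 exceeded Col4a2 by a factor of 2.28 in fibroblast (2.13 to 2.43), 2.21 in tumour (2.07 to 2.35) and 1.83 in endothelial barcodes (1.70 to 1.97). The endothelial interval overlapped neither of the others. In unmatched barcodes, which include the neutrophil barcodes, the factor was 1.26 (1.07 to 1.49). Neutrophil barcodes had the opposite balance, 18 UMIs of Col4a1 and 86 of Col4a2, a ratio of 0.209 (0.118 to 0.351). Across 503 fibroblast barcodes thinned to 2000 UMIs the rank correlation of the pair was 0.27, beside a median of 0.11 over the 210 pairs of well detected members. Those members had a UMI in 50% or more of the barcodes. Col4a1 and Col4a2 were not among them, with a UMI in 29.6% and 18.9%, so the 2 values are not alike. All of these barcodes share 1 library.

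Col18a1, the precursor of endostatin, had 419 CPM in endothelial (382 to 458) and 223 in tumour barcodes (216 to 230), and only 30.8 in fibroblast barcodes. The tumour class held 77.6% of its UMIs. Col15a1, its nearest relative, was at 1.23 CPM in tumour barcodes, 334 in endothelial and 62.1 in fibroblast barcodes. Fibroblast barcodes held 47.7% of Col15a1 UMIs and endothelial barcodes 28.9%, while in the cells kept by the authors endothelial barcodes led with 35.6%. Col4a5, a chain of a less common type IV network, was rare, with 18.1 to 22.2 CPM in tumour, 10.2 in fibroblast and 0.887 in endothelial barcodes, the last from 1 UMI.

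The remaining non-fibrillar collagens divided between tumour and fibroblast barcodes. Col7a1, the anchoring fibril collagen of epithelial basement membranes, had 108 CPM in tumour (103 to 113) and 18.8 in fibroblast barcodes, with 83.4% of its UMIs in the tumour class. After thinning it was detected in 7.85% to 12.5% (interval) of tumour and 0.176% of neutrophil barcodes. Col8a1, a short-chain network collagen, had a higher level in fibroblast barcodes, 314 CPM against 196 in tumour barcodes, but tumour barcodes held 48.8% to 51.1% of its UMIs (interval) and fibroblast barcodes 42.8%. In the cells kept by the authors fibroblast barcodes led, with 47.1%. Col16a1, a minor fibril-associated collagen, had 118 to 132 CPM in fibroblast and 47.6 CPM in tumour barcodes. Col12a1, which binds type I fibrils, was mainly fibroblast, at 769 against 31.5 CPM.

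Tumour barcodes deeper and shallower than 20000 UMIs were compared, since the authors' kept cells have only the latter. Col18a1 had 213 CPM in the 398 deeper and 269 CPM in the 343 shallower barcodes, Col7a1 106 and 118 CPM, and Col4a1 164 and 173 CPM. Col3a1 had 123 and 55.6 CPM, and Dcn 14.3 and 6.54 CPM. Of 33 members tested, 10 were at least 2-fold higher in deeper barcodes (background 2.83%), all 10 with fibroblasts as main source. Only 1, Col4a5, was at least 2-fold lower (4.45%). Among these 10, Col1a2, Col3a1, Col5a2, Col6a3, Fbn1, Dcn, Bgn and Lox had 50% of their tumour UMIs in 5 or fewer barcodes. Col5a3 needed 7 barcodes and Postn 13. The count of 10 thus rests on few barcodes, and the split was not repeated without them.

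Fn1, Thbs1 and Vcan drew more of their UMIs from macrophage barcodes than from any other class. With class thresholds 2 times as high, unmatched barcodes instead held the most UMIs of Thbs1 (40.6%) and Vcan (33.8%). Fn1 (fibronectin), which cells bind through integrins, had 198697 UMIs, more than any other member, and 62.4% lay in macrophage barcodes. Its level was 2621 CPM in macrophage (2606 to 2636), 2591 in fibroblast (2559 to 2622) and 1935 in tumour barcodes (1915 to 1955). The macrophage to fibroblast ratio was 1.01 (0.998 to 1.03), so that these 2 classes did not differ beyond counting error. After thinning, Fn1 was detected in 58.9% of macrophage, 77.9% of fibroblast, 71.9% of tumour and 9.53% of neutrophil barcodes. Macrophage barcodes remained its main source in every alternative tried, but the class with the highest level passed to tumour barcodes in the cells kept by the authors and to fibroblast barcodes with every barcode weighted alike. Its macrophage UMIs were spread widely, with 608 barcodes needed for 50%.

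Vcan (versican), a large hyaluronan-binding proteoglycan, had 153 CPM in macrophage and 608 CPM in fibroblast barcodes, with 47.5% and 40.2% of UMIs. Thbs1 (thrombospondin 1), an inhibitor of angiogenesis that also activates TGF-beta, had 297 and 1025 CPM, with 44.7% and 32.7%, and 301 CPM in unmatched barcodes. Vcan was detected after thinning in 12.1% of macrophage and 1.09% of neutrophil barcodes, Thbs1 in 17.3% and 3.35%. Col14a1, a fibril-associated collagen with fibroblasts as its main source, was the one collagen with a sizeable macrophage part, 38.6% of UMIs at 67.2 CPM (64.9 to 69.6), beside 471 CPM in fibroblast barcodes. Its detection was 4.85% in macrophage and 0.529% in neutrophil barcodes, and 50% of its macrophage UMIs were spread over 304 barcodes, with 0.755% in the richest. For Col1a1 the richest macrophage barcode held 16.3%. In the cells kept by the authors, macrophage barcodes were the main source of Col14a1, with 51.5%.

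Within the macrophage class the matrix genes differed with other genes of the barcode. The 5132 macrophage barcodes with 1000 UMIs or more were ranked by 4 pairs or trios of non-member genes, and the 513 highest, 10%, were set against the other 4619. The ranking genes were chosen after values had been seen, so these are descriptions. In barcodes high in Ccr2 and Plac8, genes of recently arrived monocytes, Vcan was 477 against 128 CPM and Thbs1 884 against 253 CPM, while Fn1 was 1261 against 2728 CPM. At least 2-fold higher were 2 of 33 members tested (background 6.21%), and 8 were at least 2-fold lower (15.0%). Their complement genes C1qa, C1qb and C1qc summed to 2324 against 5465 CPM.

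In barcodes high in Arg1 and Spp1, genes linked to hypoxic tumour macrophages, Fn1 reached 5041 against 2233 CPM, a ratio of 2.26 (2.23 to 2.29). It was the only member at least 2-fold higher (background 2.24%), while 7 of 33 were at least 2-fold lower (9.0%), among them Sparc and Fbln2. These 2 genes had 31.9 and 6.64 CPM in the whole macrophage class. Neutrophil barcodes had 43.7 and 13.1 CPM, or 20.8 and 4.88 CPM without 1 barcode rich in collagen. In barcodes high in Cx3cr1 and Adamdec1, genes of tissue macrophages, Col14a1 was 127 against 58.7 CPM and Vcan 27.6 against 171 CPM. There 2 of 33 members, Col14a1 and Col15a1, were at least 2-fold higher (background 4.29%) and 12 at least 2-fold lower (8.65%). In barcodes high in Cd163, Folr2 and Lyve1, genes of perivascular resident macrophages, all of these genes were lower: Fn1 961 against 2783 CPM, Thbs1 80.8 against 318, Vcan 57.2 against 162 and Col14a1 21.2 against 71.7. There 8 of 33 members were at least 2-fold lower (background 12.3%) and 0 higher (7.26%). Some members counted as lower in these splits rest on few barcodes. Of macrophage UMIs, 50% lay in 3 barcodes for Col5a3 and for Col6a3, 8 for Loxl2, 12 for Col12a1 and 14 for Tnc. Thbs1 needed 247 and Vcan 300. Col6a3 was counted as lower in every split, and the splits were not repeated without these barcodes. The highest and the other barcodes also differed in median depth. It was 5649 and 8018 UMIs for Ccr2 and Plac8, and 11694 and 7225 for Arg1 and Spp1. For Cx3cr1 and Adamdec1 it was 11264 and 7208, and for Cd163, Folr2 and Lyve1 6753 and 7743. The part that depth, neutrophil genes or fibroblast RNA in macrophage barcodes have in these levels was not tested.

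**Figure D4:**
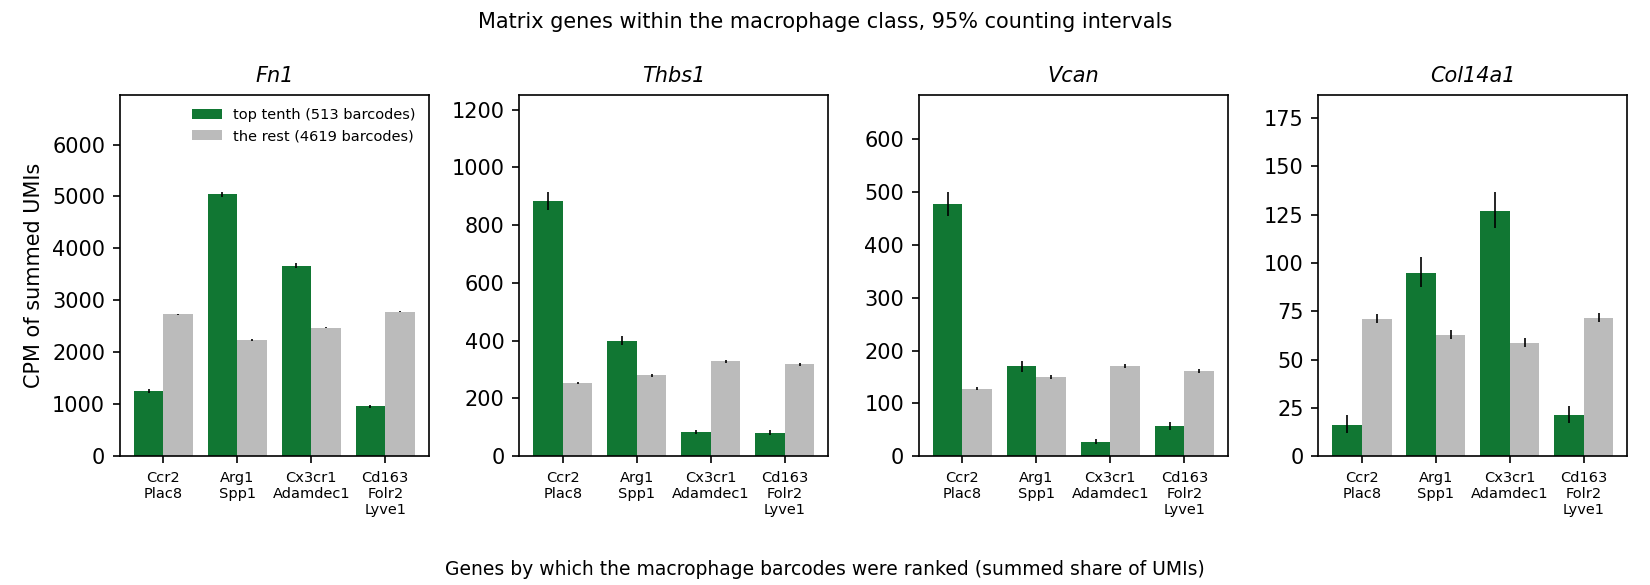
CPM of Fn1, Thbs1, Vcan and Col14a1 (panels) in the 513 macrophage barcodes highest in each set of ranking genes (green) and in the other 4619 (grey), with 95% counting intervals. Vcan and Thbs1 are highest with Ccr2 and Plac8, Fn1 with Arg1 and Spp1, and Col14a1 with Cx3cr1 and Adamdec1.

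Fibroblast barcodes were compared by Acta2 and Tagln, contractile genes of myofibroblasts, in a split also chosen after values had been seen. The 178 barcodes above 111 CPM of both genes together were set against the 292 with no UMI of either. Their median depths were 23310 and 12238 UMIs. Tnc (tenascin C) was 4196 CPM in the contractile barcodes and 889 CPM in the others, a ratio of 4.72 (4.55 to 4.89). Col8a1 was 493 against 130 CPM and Col12a1 1034 against 479 CPM. Thbs1 was 1391 against 669 CPM, and Thbs2 1082 against 518 CPM. Col7a1 was 36.7 against 3.23 CPM, but 10 fibroblast barcodes held 50% of its UMIs.

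The barcodes without contractile genes were higher in Dcn, at 2970 against 866 CPM, a ratio of contractile to other barcodes of 0.291 (0.281 to 0.302). Col14a1 was lower in contractile barcodes as well, 259 against 667 CPM, as were Col4a1, 182 against 383 CPM, and Col18a1, 16.7 against 40.2 CPM. Type I collagen differed little, with 12679 against 13953 CPM of Col1a1, while Col3a1 was 13442 against 21154 CPM. Bgn had 1618 and 1577 CPM. In all, 6 members were at least 2-fold higher in contractile barcodes (background 6.51%) and 5 at least 2-fold lower (8.17%). Pi16, Dpt and Clec3b, genes of adventitial fibroblasts, summed to 260 CPM in the contractile and 1399 CPM in the other barcodes.

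The split was repeated on the 173 contractile and 265 other barcodes with 2000 UMIs or more, each thinned to 2000 UMIs, although the groups themselves were still set at full depth. Tnc then had a ratio of 4.88, Col8a1 of 3.84, Col12a1 of 2.58, Dcn of 0.365 and Col14a1 of 0.473. Thbs1 and Thbs2 were at 1.88 and 1.92, just under 2-fold. Col7a1 had 49.1 CPM in contractile barcodes and no UMI left in the others, and Col18a1, at 0.414 before thinning, was at 1.19 (0.548 to 2.54).

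**Figure D5:**
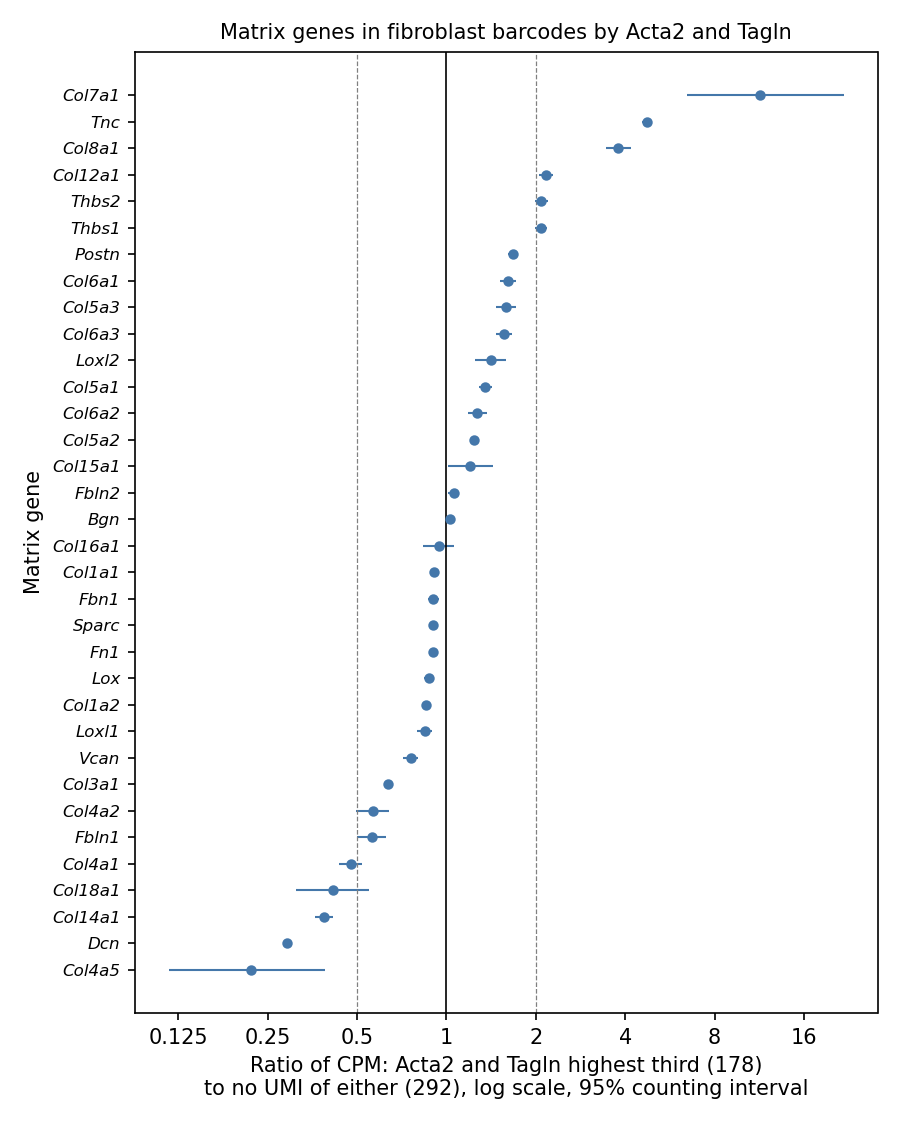
Ratio of CPM between the 178 fibroblast barcodes highest in Acta2 and Tagln and the 292 with no UMI of either (x axis, log scale) for each matrix gene, with 95% counting intervals and dashed lines at 2-fold. Col7a1, Tnc and Col8a1 lie furthest right, Col4a5 and Dcn furthest left, and type I collagen near 1.

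Across single fibroblast barcodes the highest correlations were among the type I and III genes and Sparc. These were also the most abundant members there, at 8191 to 17598 CPM. Over 503 fibroblast barcodes thinned to 2000 UMIs, the Spearman correlation was 0.86 for Col1a1 with Col1a2, 0.70 for each of them with Sparc, and 0.68 for Col1a2 with Col3a1. The lowest of the 210 pairs was Tnc with Dcn, at -0.37, followed by Col12a1 with Dcn, at -0.31. Col5a1 with Col5a2, fibrillar chains of lower level, had 0.24. The part that abundance has in this ranking was not tested. All of these values are descriptions over barcodes of 1 library that share free RNA and a fixed depth.

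Neutrophil barcodes, a class in which fibroblast collagens should be absent, gave a level to set beside the others. In neutrophil barcodes the 24 members with both main source and highest level in fibroblasts stood at 0.366% to 1.46% of their fibroblast level, with a median of 0.697%. Leaving out 1 neutrophil barcode rich in collagen gave 0.253% to 1.22%, with a median of 0.415%. Col1a1 was 91.7 CPM with that barcode and 47.8 CPM without it, beside 53.0 CPM in macrophage and 96.8 CPM in tumour barcodes. These classes differ in median depth, at 1666 UMIs for neutrophil, 7390 for macrophage and 21312 for tumour barcodes. The same CPM therefore need not mean the same amount of free RNA per barcode, and the part of free RNA in each class was not tested. Fn1 stood at 5.16% of its macrophage level, and Thbs1 at 8.28% and Vcan at 2.82% of their fibroblast levels.

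Genes that make, bind or accompany collagen were counted from lists of related genes, beside the same background of 9.72%. Of 27 genes for collagen synthesis and processing, 16 were at least 4 times higher in fibroblast barcodes than in all others, such as Adamts2, which cleaves procollagen (171 CPM), and P4ha3, a prolyl hydroxylase subunit (135 CPM). The macrophage class was nearly without Loxl4 and Tll1, each with 1 UMI there. Of 19 further proteoglycan and elastic fibre genes, 15 were at least 4 times higher in fibroblasts, with Prelp at 139, Efemp1 at 211, Podn at 60.1 and Fmod at 57.9 CPM. Of 18 matricellular genes, 14 were, among them Smoc2 at 84.8, Ccn3 at 119, Tnxb at 72.8 and Ccn5 at 144 CPM.

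Basement membrane genes were again shared. Of 14 tested, 7 were at least 4 times higher in fibroblast, 5 in tumour (background 8.59%) and 5 in endothelial barcodes (8.18%). Lama2, a laminin chain of mesenchymal basement membranes, had 178 CPM in fibroblast barcodes. Lamb1 and Nid1 were at 2.69 and 1.21 CPM in macrophage barcodes. Of 16 other collagens, 9 were at least 4 times higher in fibroblasts, including Col28a1 (49.3 CPM) and Col24a1 (30.5 CPM). Col4a6 was a tumour gene, at 10.5 CPM and 33.6 times the level elsewhere, while Col11a1 had no UMI in tumour barcodes among 589 in all, which allows up to 0.160 CPM. Of 9 collagen receptors, 3 were at least 4 times higher in fibroblasts, among them the endocytic receptor gene Mrc2, at 190 CPM. Low levels were named from the same list: the kinase genes Ddr2 and Ddr1 had 1.84 and 0.698 CPM in macrophage barcodes, and the inhibitory receptor gene Lair1 1.81 CPM in tumour barcodes.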

How the data were processed

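The values are whole UMI counts that the authors deposited for every gene and barcode. Per the file headers, Cell Ranger 8.0.1 produced them, and STAR appears in the submitters' processing notes. No genome build is given in the sources used here. The deposited list of kept cells (10835 treated, 11643 control) assigned the matrix to the treated library: all 10835 treated barcodes and 37 control barcodes, 33 of them on both lists, were in it. All barcodes within the limits on genes and mitochondrial UMIs were used, among them 1141 that the authors left out, 1095 with 20000 UMIs or more.

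UMIs were summed per class in Python 3.11.15 with numpy 2.4.6, scipy 1.17.1 and pandas 2.3.3. Free RNA was not subtracted and doublets were not called. Levels have exact Poisson, shares exact Clopper-Pearson and ratios exact conditional intervals. Ratios called at 4-fold had 0.5 counts added. Genes needed 20 UMIs. The calculation was tested on simulated data. Members, lists and splits were chosen with earlier results of these data known. From each list, up to 4 genes were named, those with 50 UMIs or more whose ratio lay furthest from 1. One gene so chosen is not reported here. Lum and Mfap5 were kept out of the fibroblast count of their list. RefSeq windows existed for 24 members. Alternatives changed the barcodes used, the class rules, the weighting and the depth.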

Additional observations from a re-analysis of the deposited data

Results flagged for a closer look

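The 333 barcodes outside the limits on genes and mitochondrial UMIs entered no comparison, yet they carried matrix RNA. Members made up 0.522% of their 877882 UMIs (exact binomial interval 0.507 to 0.537), 4581 UMIs in all, beside 1.09% in the barcodes used. Of these, 689 UMIs were of Col1a1, Col1a2 or Col3a1.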

How the results depend on the processing

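No paired analysis was possible because the series has 1 library per group and only the treated one was analysed. Fibroblast barcodes were the main source of 24 to 27 members, had the highest level of 27 to 28 and were at least 4 times higher for 28 to 30 over all alternatives tried. In the cells kept by the authors, and likewise under 20000 UMIs, tumour barcodes were the main source of 3 members, endothelial barcodes of 1 and macrophage barcodes had the highest level of 0, and the ratio of Vcan in macrophage to all other barcodes turned from -0.10 on the log2 scale to 0.01 and 0.03. With every barcode weighted alike, tumour barcodes were the main source of 3 and unmatched barcodes of 1, tumour barcodes were at least 4 times higher for 7, macrophage barcodes had the highest level of 0, and the log2 ratios of Thbs1 and Vcan in macrophage barcodes were 0.64 and 0.99 (-0.27 and -0.10 as reported). Thinning to 1000 UMIs gave 1 member with an endothelial main source, 7 at least 4 times higher in tumour barcodes, 0 highest in macrophage barcodes and log2 ratios of 0.57 for Thbs1 and 0.78 for Vcan. Class thresholds 2 times as high left macrophage barcodes 1 member as main source and gave unmatched barcodes 3 (Tnc, Thbs1 and Vcan). Thresholds 0.5 times as high, a fibroblast class without Serping1 and, chosen after seeing the data, leaving out barcodes with pericyte genes each left 0 members highest in macrophage barcodes, the member concerned being Fn1. In all, 8 members changed main source in some alternative, and 175 of 442 log2 ratios of members, over 13 alternatives, moved by more than 1.5 times. Of the other settings chosen after seeing the data, at least 3 UMIs of the class genes and leaving out barcodes with neutrophil genes moved no ratio that far, and thinning the fibroblast split kept its counts of members within 1.5 times. Leaving out the endothelial barcode richest in Col1a1 gave the same number of members at least 4 times higher in endothelial barcodes, 4, but turned the counts of the pericyte split from 4 higher and 10 lower to 10 higher and 4 lower. The cause of these changes was not tested. Detection depends on depth: unthinned and thinned to 2000 UMIs, Fn1 was found in 77.3% and 68.6% of macrophage, Col18a1 in 81.6% and 36.5% of tumour, and Col4a1 in 96.3% and 91.0% of endothelial barcodes, against 58.9%, 19.4% and 70.0% at 1000 UMIs. Col3a1 was found in 97.6% of unthinned fibroblast barcodes, which include shallower ones. With no minimum of UMIs the share of all genes at least 4 times higher in fibroblast barcodes was 33.5%, and member counts did not change.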
